A study of Mus musculus with 2 samples.

Results

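Schwann cells are the glia of peripheral nerves, and they descend from the neural crest, a migratory cell population of the embryo that also gives rise to melanocytes, sensory neurons and much of the facial skeleton. A set of 8 genes of this lineage was followed in 2 mouse rhabdoid tumors (RT), out of 55416 genes in the count table: *Sox10*, *Tfap2a*, *Egr2*, *Erbb3*, *Ngfr*, *Mag*, *Pmp22* and *S100b*. The genes were chosen by name, with earlier results of these data known. All 8 were found by symbol and had at least 10 counts over both libraries. RT are malignant tumors of childhood that follow loss of the SWI/SNF chromatin remodeling subunit *Smarcb1*.

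Both tumors arose in *Dppa3-cre::Smarcb1* Fl/+ mice on a C57BL/6 background, in which Cre recombinase is driven from the locus of *Dppa3*, a gene of primordial germ cells, and 1 *Smarcb1* allele is floxed. The labels place 1 tumor inside the skull at the trigeminal nerve and 1 outside it in the maxillary face, and class both as MYC; ages were not given. The intracranial library held 34545846 counts and the extracranial library 26915696. With 1 library per location there was no replicate, so the intervals below cover counting error only, compare 2 libraries and not 2 locations, and carry no p-value. *Smarcb1* itself stood at 10.5 CPM (read counts relative to library size; 95% Clopper-Pearson interval 9.45 to 11.6) and 19.8 CPM (18.2 to 21.6), with no normal tissue alongside.

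In this lineage, *Sox10* encodes the transcription factor required throughout Schwann cell development, and *Tfap2a* encodes a factor that specifies neural crest at its onset. *Erbb3* is the receptor through which axonal neuregulin reaches the Schwann cell, while *Ngfr* encodes the p75 neurotrophin receptor of crest cells and immature Schwann cells. *Egr2* (also called Krox20) switches on myelination, and *Mag* and *Pmp22* encode membrane proteins of myelin. *S100b*, a calcium-binding protein, is the usual histological marker of Schwann cells. Outside nerves, *Egr2* is also an early response gene of macrophages and T cells, *Erbb3* and *Tfap2a* are expressed in epithelia, and *Pmp22* is widely expressed in mesenchyme.

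The pieces were not sorted, so in these bulk libraries fewer cells of a type and less RNA per cell cannot be told apart. Keratinocyte and basal epithelium markers were higher in the intracranial library for 10 of 10 genes and summed to 14838 CPM there against 3.89 CPM, with *Krt5*, *Krt15* and *Trp63* at 0 counts in the extracranial library. Of the 11 sensory ganglion neuron markers, 8 had more than 3 counts in the intracranial library, and the list summed to 96.3 CPM and 15.8 CPM. Its most counted genes were *Calca*, with 2484 and 39 counts, *Tubb3*, with 629 and 118, *Prph*, with 97 and 181, and *Avil*, with 81 and 67. Lower counts were found for transcription factors and channels of these neurons: *Pou4f1* had 9 and 1 counts, *Isl1* 3 and 4, and *Trpv1* 2 and 1 (intracranial first, here and below). The sensory neuron list thus held both counted and nearly uncounted genes in the piece labelled trigeminal nerve. Epithelial markers, which no label names, were abundant there and summed to 3.89 CPM in the piece labelled maxillary face. Why they lay on the intracranial side was not tested, and with 1 library per location it cannot be told from these data.

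Of the 8 genes, 6 were lower and 2 higher in the extracranial library, and for all of them the 95% interval of the ratio left out equal levels. That rule alone says little here, since it held for 32.2% of 21977 genes in the lower direction and 29.2% in the higher, 61.4% in all. The stricter rule used from here on requires the whole interval to lie beyond 4-fold. It was met by *Sox10* and *Erbb3*, lower in the extracranial library, and by *Egr2*, higher there. Over all genes tested, 5.41% met it as lower and 1.78% as higher, 7.19% in either direction, against these 3 of 8. The median log2 ratio of the 8 genes (extracranial over intracranial) was -1.02, beside -0.04 over all genes.

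**Figure D1:**
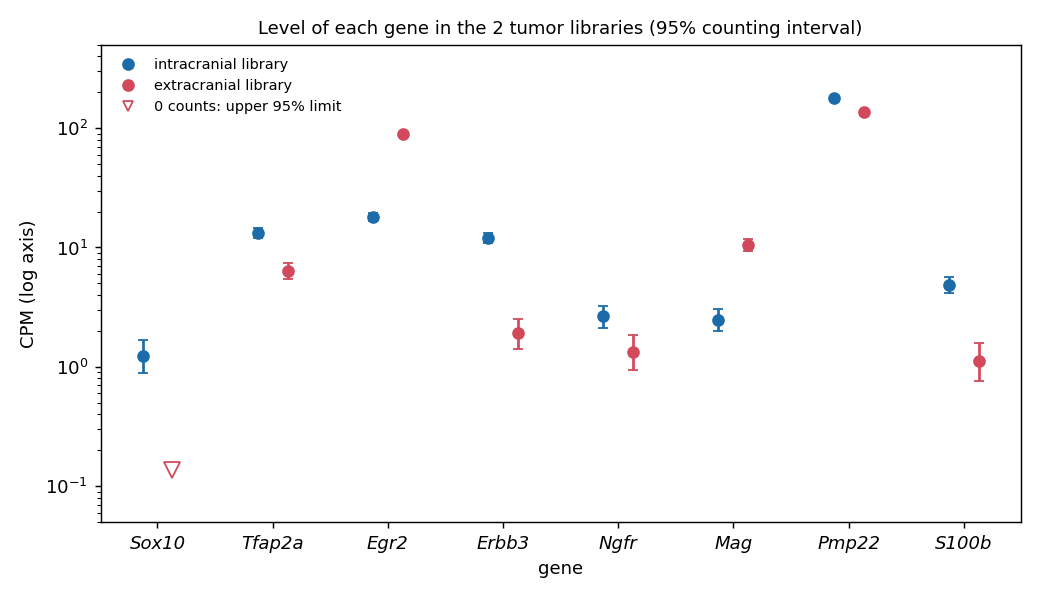
Level in CPM on a log axis of each of the 8 genes, with the intracranial library in blue and the extracranial library in red; bars are 95% counting intervals and the open triangle is the upper limit for 0 counts. *Egr2* and *Mag* are the genes whose red point lies above the blue point, and *Sox10* has 43 and 0 counts.

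*Sox10* (ENSMUSG00000033006, chromosome 15) was counted 43 times in the intracranial library, which is 1.24 CPM (0.896 to 1.67), and 0 times in the extracranial library. A count of 0 allows up to 3 counts, or 0.112 CPM in that library. Against this floor, *Sox10* was at least 11-fold higher in the intracranial library, and the bound of its interval nearest to equal levels was 8.60-fold. Transcripts of this Schwann cell regulator were thus present at a low level in 1 piece and not detectable at this depth in the other. As given above, epithelial markers were also higher in the intracranial library, and their part in the *Sox10* count was not tested.

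*Tfap2a* (ENSMUSG00000021359, chromosome 13) had 460 and 170 counts, or 13.2 CPM (12.1 to 14.5) and 6.35 CPM (5.43 to 7.38). It was 2.08-fold higher in the intracranial library (1.74 to 2.50), short of the 4-fold rule. The annotation places 3 antisense transcripts over its exons; they had 17 and 5, 9 and 11, and 1 and 0 counts. Whether counting used the strand is not stated, so reads in those shared exons could belong to either gene. The other *Tfap2* genes that were detected lay further apart: *Tfap2c* had 320 and 7 counts (35.2-fold higher in the intracranial library) and *Tfap2b*, another factor of the neural crest, had 219 and 3. The ratio for *Tfap2b* was 56.2-fold, with a log2 interval of -8.10 to -4.25. *Tfap2a* was the member of its family with the most even counts between the libraries, and *Tfap2d* had 0 counts in both. The part of epithelial cells, whose markers were also higher in the intracranial library, in the ratios of this family was not tested.

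*Erbb3* (ENSMUSG00000018166, chromosome 10) had 415 and 51 counts. Its level was 11.9 CPM (10.8 to 13.1) in the intracranial library and 1.91 CPM (1.42 to 2.51) in the extracranial one, a 6.27-fold difference (4.68 to 8.56). *Erbb2*, the receptor that pairs with it for signaling, had 1099 and 326 counts, and *Egfr* had 3726 and 1899. *Erbb4* was at 0 in both. Of the 12 other receptors and ligands of this family, 10 had enough counts for a ratio, and 1 passed the 4-fold rule. This was *Ereg*, the ligand epiregulin, with 1946 and 7495 counts and a 5.0-fold higher level in the extracranial library (log2 ratio 2.32, 2.25 to 2.39). It went the opposite way to *Erbb3*, while the median log2 ratio of the list was -0.98. Epithelial markers moved with *Erbb3*, as given above, and their part in its ratio was not tested.

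*Ngfr* (ENSMUSG00000000120, chromosome 11) had 92 and 36 counts, or 2.65 CPM (2.13 to 3.25) and 1.35 CPM (0.942 to 1.86). The 1.97-fold difference had an interval of 1.33 to 2.98. Its ligand *Bdnf* had 89 and 70 counts, and the interval of that ratio held equal levels. Of 10 neurotrophins, receptors and partners with a ratio, 1 passed the 4-fold rule: *Rtn4r*, the Nogo receptor, with 224 and 11 counts, was 15.7-fold higher in the intracranial library (log2 ratio -3.97, -4.99 to -3.10). The list median was -0.63. *Ngfr* thus differed less between the libraries than its coreceptor *Rtn4r*, and in the same direction.

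*S100b* (ENSMUSG00000033208, chromosome 10) had 168 and 30 counts. At 4.83 CPM (4.13 to 5.62) and 1.12 CPM (0.756 to 1.6) it was 4.31-fold higher in the intracranial library, but the interval of 2.91 to 6.59 reached below 4-fold. In the S100 family, 11 of 13 other genes with a ratio were lower in the extracranial library by the interval that leaves out equal levels, and 3 of the 13 passed the 4-fold rule. Those 3 were *S100a8* (8970 and 9 counts) and *S100a9* (14455 and 13), which are expressed in neutrophils among other cells, and *S100a14* (8106 and 7), an epithelial gene. *S100a6* had the highest level per kilobase of exon of the family, at 1184 and 971.0 CPM per kilobase. *S100a1* was higher in the extracranial library instead, with 1354 and 1763 counts (log2 ratio 0.76, 0.65 to 0.86). Cartilage, adipocytes and melanocytes can also express *S100b*. Their marker lists summed to 218.0 and 37.4 CPM for cartilage, 3.60 and 5.83 CPM for adipocytes, and 13.99 and 23.7 CPM for melanocytes. In the cartilage list *Comp* (6474 and 270 counts) and *Sox9* (802 and 333) were lower in the extracranial library, as *S100b* was. *Hapln1* (264 and 370) was higher there, and *Col2a1* had 23 and 21 counts. *Comp* alone stood at 186.3 and 10.1 CPM. In the other lists *Plin4* (83 and 2) and *Pmel* (47 and 18) were lower in the extracranial library. *Pparg* (30 and 151), *Mitf* (303 and 464) and *Kit* (102 and 143) were higher there. *Adipoq* had 1 and 0 counts and *Tyr* 0 and 1. The part of these cells in the level of *S100b* was not tested.

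*Pmp22* (ENSMUSG00000018217, chromosome 11) had the highest level per kilobase of exon of the 8 genes in both libraries, with 6168 and 3623 counts. Its levels of 177.5 CPM (173.1 to 182.0) and 135.4 CPM (131.0 to 139.9) differed by 1.31-fold (1.26 to 1.37), the smallest ratio of the set and the one with the narrowest interval. It made up 76.5% of the summed CPM of the 8 genes in the intracranial library and 55.0% in the extracranial library. *Pmp22* was thus nearly even between pieces that differed in *Sox10*. Of its relatives, *Emp1* had 89701 and 34529 counts (2.0-fold higher in the intracranial library), *Emp3* had 7322 and 7036, and *Emp2* had 1949 and 249. Only *Emp2*, at 6.03-fold, passed the 4-fold rule among the 3 relatives with a ratio.

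*Egr2* (ENSMUSG00000037868, chromosome 10) went the other way. It had 630 counts in the intracranial library, or 18.1 CPM (16.7 to 19.6), and 2396 in the extracranial library, or 89.5 CPM (86.0 to 93.2). The extracranial level was 4.94-fold higher (4.52 to 5.40; log2 ratio 2.30). Its share of the summed CPM of the 8 genes was 7.81% in the first library and 36.4% in the second. For *Mag* (ENSMUSG00000036634, chromosome 7), 86 and 282 counts gave 2.48 CPM (1.98 to 3.06) and 10.5 CPM (9.34 to 11.8). This was a 4.26-fold higher level in the extracranial library, with an interval of 3.33 to 5.49 that reached below 4-fold. Myelin glycoprotein *Mag* and the myelin regulator *Egr2* were thus the pair with more counts in the library that had no *Sox10* count.

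**Figure D2:**
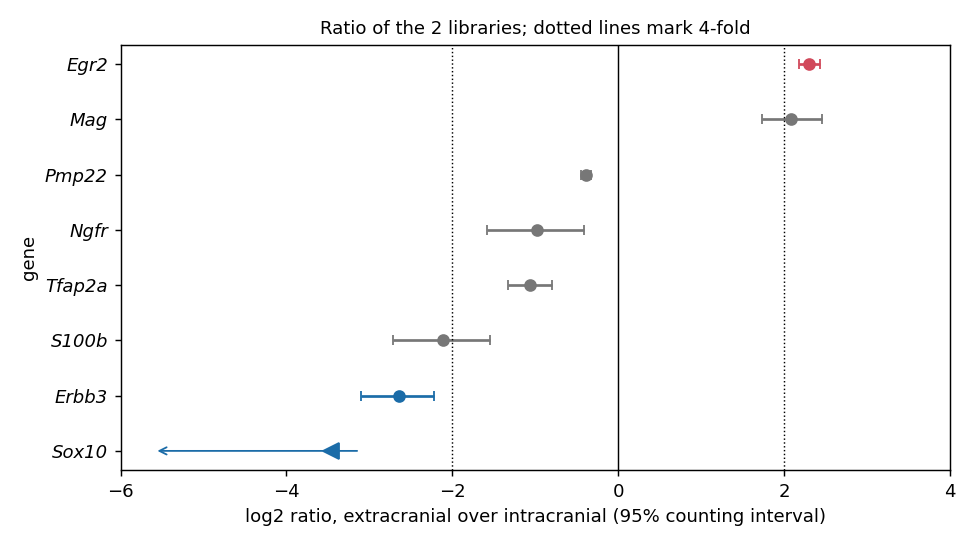
Log2 ratio of the extracranial over the intracranial library for the 8 genes, with 95% counting intervals; red marks a gene whose whole interval lies above 4-fold, blue one whose whole interval lies below it, and grey the rest. The arrow for *Sox10* runs from the interval bound nearest to equal levels, and its triangle marks the ratio with 0 counts set to 3; *Egr2* lies at 2.30 and *Erbb3* at -2.65.

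Because *Egr2* and *Mag* parted from the rest, the 300-bp promoter windows around their RefSeq transcript starts are shown (build GRCm38.p6, whereas the reads were counted on GRCm39). Windows were searched on both strands for an EGR motif (GCGNGGGCG), SOX motifs (ACAAAG and ACAATG) and a TFAP2 motif (GCCNNNGGC), and capitals mark each match. The first window of each gene is printed, 5′ to 3′ on the strand of the gene.
Egr2, chr10:67535249-67535548, plus strand: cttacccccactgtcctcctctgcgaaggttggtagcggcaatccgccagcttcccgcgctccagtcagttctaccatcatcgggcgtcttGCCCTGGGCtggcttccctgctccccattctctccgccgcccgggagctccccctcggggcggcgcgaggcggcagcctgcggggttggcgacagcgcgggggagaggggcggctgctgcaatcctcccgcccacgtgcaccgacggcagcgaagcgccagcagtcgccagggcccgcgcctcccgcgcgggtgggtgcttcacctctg
Mag, chr7:30914814-30915113, minus strand: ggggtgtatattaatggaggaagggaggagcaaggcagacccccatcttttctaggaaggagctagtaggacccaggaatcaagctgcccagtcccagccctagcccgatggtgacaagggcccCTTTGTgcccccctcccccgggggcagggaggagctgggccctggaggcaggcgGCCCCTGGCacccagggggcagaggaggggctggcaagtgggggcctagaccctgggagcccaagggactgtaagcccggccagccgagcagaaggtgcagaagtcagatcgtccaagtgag

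The printed *Egr2* window held 1 TFAP2 match, and the printed *Mag* window held 1 SOX match and 1 TFAP2 match, which do not overlap. None of the other *Egr2* windows held a match of these motifs, and *Mag* window 3 held none either. Windows were found for 6 of the 8 genes, 16 windows in all. A TFAP2 match was in 5 of the 16 windows, a SOX match in 2 and an EGR match in 0. The 2 windows with a SOX match are overlapping *Mag* windows, and they also share 1 TFAP2 site, which is counted in both. Over all 32851 mouse promoter windows of this length, 16.6% held the TFAP2 motif, 28.6% a SOX motif and 5.55% the EGR motif. These are letter matches in short windows and describe sequence only.

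For *Egr2*, the levels of immune markers are set beside the gene. Of 13 macrophage markers, 11 were higher in the extracranial library by an interval that left out equal levels, and their sum was 3055 CPM and 8501 CPM. *Cd68* had 4321 and 5626 counts (1.69-fold), *Adgre1* was 3.71-fold higher and *Aif1*, at 5.37-fold, passed the 4-fold rule, while *Cd163* was 5.63-fold lower and *Mertk* had 1168 and 606 counts. *Cd3d* (73 and 70 counts) and *Cd3e* (61 and 48), which encode subunits of the T cell receptor complex, were within counting error. *Cd4*, *Cd8a* and *Cd8b1* were 11.2-fold, 17.0-fold and 9.96-fold higher in the extracranial library. Among the macrophage markers, *Aif1* had a higher ratio than the 4.94-fold of *Egr2*, and the other 10 that were higher there had lower ones, from 1.69-fold for *Cd68* to 3.81-fold for *Cx3cr1*. The part of these cells in the level of *Egr2* was not tested.

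Regulators that act with *Egr2* or *Sox10* in Schwann cells lay on both sides of equal levels, 4 higher and 6 lower in the extracranial library. Of the 13 genes, 1 passed the 4-fold rule: *Pou3f1* (Oct6), the factor that precedes *Egr2* in promyelinating Schwann cells, had 75 and 2 counts. Its level was 28.9-fold higher in the intracranial library (log2 ratio -4.85, -7.92 to -2.95). The epithelial markers given above were also higher there, and their part in the ratio of *Pou3f1* was not tested. The corepressors of EGR factors, *Nab1* and *Nab2*, had 2090 and 883 and 2148 and 1989 counts. *Egr3*, a relative of *Egr2*, had 507 and 198 counts, which is 1.97-fold higher in the intracranial library (log2 ratio -0.98, -1.22 to -0.74), so *Egr2* and *Egr3* differed in direction. The median log2 ratio of the list was -0.18.

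*Mag* belongs to the Siglec family of sialic acid receptors, whose other members are mostly found on immune cells. All 7 of the Siglec genes listed had a ratio; for 6 of them the interval lay on the higher side of equal levels in the extracranial library, and the list median was 1.90. *Cd22*, a B cell gene, lies near *Mag* on the same strand of chromosome 7, 18.8 kb away in GRCm38 with 1 annotated gene between. It had 66 and 393 counts and was 7.73-fold higher in the extracranial library (log2 ratio 2.95, 2.57 to 3.35), past the 4-fold rule. *Siglec1* had 2487 and 2728 counts, and *Siglece* was 3.73-fold higher in the extracranial library. The ratio of *Mag* to *Cd22* counts was 1.30 in the intracranial and 0.718 in the extracranial library. *Cd22* thus differed more than *Mag* (0.551-fold, 0.379 to 0.798, for that ratio). Of the immune markers given above, 11 of 13 macrophage and 5 of 9 T cell markers were higher in the extracranial library, as *Mag* was, and 2 and 1 were lower. Their part in the level of *Mag* was not tested.

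The central nervous system also makes *Mag*, in oligodendrocytes. Their defining markers were near 0: *Mog* had 1 and 2 counts, *Mobp* 3 and 0, *Olig1* 1 and 0, and *Olig2* and *Opalin* 0 in both libraries. In all, 3 of 12 oligodendrocyte markers had more than 3 counts in each library, and the list summed to 2.07 CPM and 3.29 CPM. Of the 4 genes of the list with a ratio, *Cldn11*, a tight junction gene of myelin and of other tissues, had 1 and 48 counts (62.3-fold, log2 interval 3.41 to 11.3) and passed the 4-fold rule as higher in the extracranial library. *Myrf*, a regulator of myelin genes, had 11 and 29 counts and was 3.42-fold higher there (1.66 to 7.59), whereas *Aspa* had 42 and 7 and *Ermn* 10 and 2. The part of these cells in the level of *Mag* was not tested.

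Other genes of myelin mostly went the opposite way to *Egr2* and *Mag*. The list was shortened after its values had been seen. Of 15 genes of myelin proteins and myelin lipid enzymes, 14 had a ratio, of which 12 were lower in the extracranial library and 2 higher by the interval that leaves out equal levels. The 4-fold rule was passed by 5, all lower there. *Nfasc*, a protein of nodes and paranodes, had 283 and 12 counts (18.2-fold), *Mal* 314 and 29 (8.34-fold), and *Gal3st1*, an enzyme of sulfatide synthesis, 77 and 1 (59.3-fold, log2 interval -11.2 to -3.37). The gap junction genes *Gjb1* and *Gjc3* had 24 and 23 counts against 0. Against the floor of 3 counts this is at least 6.16-fold and 5.90-fold higher in the intracranial library. The bounds of their intervals nearest to equal levels were 4.64-fold and 4.43-fold. *Prx*, which encodes the peripheral myelin protein periaxin, stood at 6.07 and 3.89 CPM (log2 ratio -0.64, -1.0 to -0.30). Higher in the extracranial library were *Cnp*, with 1236 and 1865 counts, and *Dusp15*, with 122 and 262. The list median of -2.21 stood against 2.09 for *Mag*. Epithelial markers were also higher in the intracranial library, as given above, and their part in the ratios of this list was not tested.

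Markers of earlier Schwann cell stages differed in direction. Of 10 precursor and immature Schwann cell genes, 9 had a ratio and 3 passed the 4-fold rule, all lower in the extracranial library. *Cdh19*, a cadherin of Schwann cell precursors, had 66 and 4 counts (12.7-fold), the adhesion gene *L1cam* 423 and 20 (16.3-fold), and *Cadm4*, which binds axonal adhesion molecules, 347 and 48 (5.57-fold). Adhesion gene *Ncam1* was 3.39-fold higher in the extracranial library instead (700 and 1826 counts), as was *Itga4* at 2.55-fold. The list median was -1.69. For repair and non-myelinating Schwann cells, 1 of 10 genes with a ratio passed the rule, and this was *L1cam* again. *Jun*, the regulator of the repair state and a general early response gene, had 8154 and 7376 counts (log2 ratio 0.23, 0.19 to 0.28), and the list median was -0.47.

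**Figure D3:**
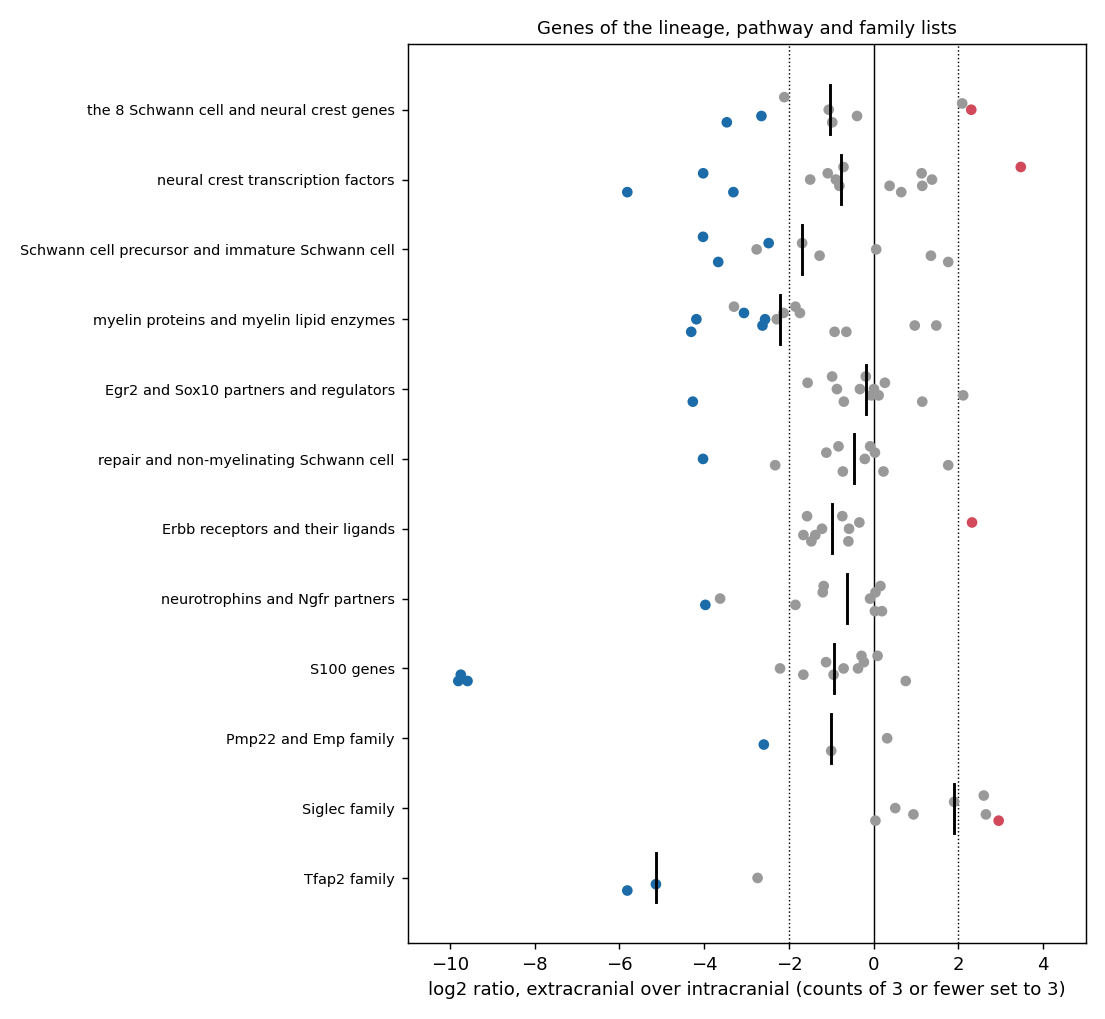
Log2 ratio of the extracranial over the intracranial library for each gene with at least 10 counts, by list, with counts of 3 or fewer set to 3; black bars are list medians, and colors mark genes whose whole interval lies beyond 4-fold. The myelin list has its median at -2.21 and the Siglec list at 1.90, whereas *Egr2* and *Mag* are the rightmost points of the top row.

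Among 17 neural crest transcription factors, 14 had a ratio and 4 passed the 4-fold rule. *Tfap2b*, *Sox6* (103 and 8 counts) and *Hand2* (1815 and 86, 16.3-fold), a factor of branchial arch mesenchyme and sympathetic neurons, were lower in the extracranial library, and *Sox5* (29 and 248, 11.1-fold) was higher there. *Sox5* and *Sox6* are close relatives that often act together, and they differed in direction. *Foxd3*, which specifies early crest, had 11 counts in each library. *Pax3* had 2 and 1 counts, *Pax7* 1 and 0, and *Zic1* 0 in both, which is at or below the floor of 3 counts. *Twist1*, *Snai1* and *Zeb2*, factors of the mesenchymal transition, were abundant in both, at 138.4 and 84.5, 28.2 and 16.1, and 55.4 and 122.8 CPM. *Sox8* and *Sox9*, which belong to the same subgroup of Sox factors as *Sox10*, had 135 and 228 and 802 and 333 counts. In the extracranial library, where *Sox10* was not detected, its relatives were thus present.

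For melanocytes, a pigmented crest lineage that also uses *Sox10*, the enzymes of pigment synthesis had few counts: *Tyr* had 0 and 1, *Tyrp1* 0 in both and *Dct* 10 and 4. Of the other genes of the list, *Pmel* (47 and 18 counts) and *Trpm1* (20 and 3) were lower in the extracranial library by an interval that left out equal levels, and *Mitf* (303 and 464) and *Kit* (102 and 143) were higher. None of the 5 melanocyte genes with a ratio passed the 4-fold rule. Perineurial genes, from the sheath around nerve fascicles, included *Slc2a1*, with 5390 and 2706 counts, and *Itgb4* and *Krt19*, which passed the rule as lower in the extracranial library and are epithelial genes too. Of the 5 perineurial genes, 4 were lower there by an interval that left out equal levels, and *Cldn1* (689 and 1027 counts) was higher. *Calca*, a peptide gene of sensory neurons and other cells, was the 1 gene of the sensory neuron list past the 4-fold rule. In cartilage and adipocyte lists, *Comp* and *Plin4* passed it as lower and *Pparg* as higher in the extracranial library.

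**Figure D4:**
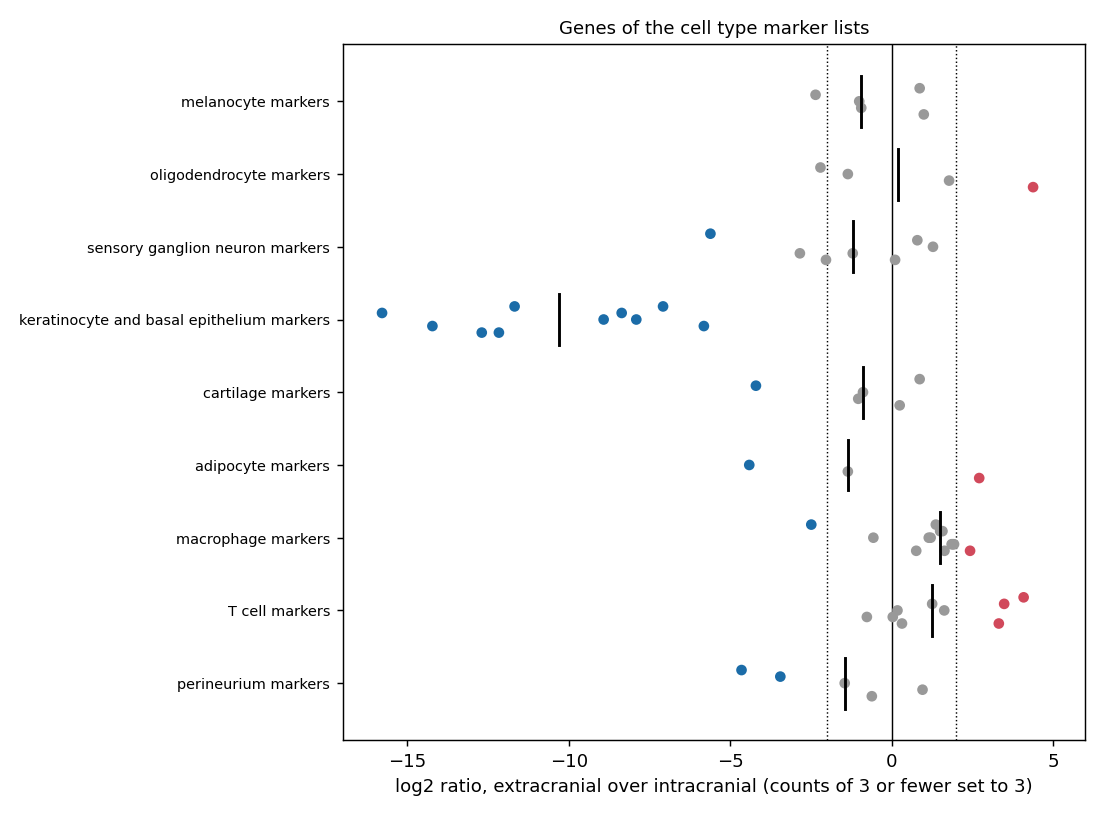
The same ratio for the genes of 9 cell type marker lists, with black bars at list medians and colors for genes whose whole interval lies beyond 4-fold. All 10 keratinocyte markers lie on the intracranial side, and 11 of 13 macrophage markers lie on the extracranial side.

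The 8 genes were also compared with each other without any scaling factor, by the ratio of their counts inside each library. For 25 of the 28 pairs, the 95% interval of the conditional odds ratio left out an equal ratio in the libraries. *Egr2* and *Mag* were a pair whose ratio did not differ beyond counting error: there were 7.33 *Egr2* counts per *Mag* count in the intracranial and 8.5 in the extracranial library, a change of 1.16-fold (0.886 to 1.51). *Erbb3* and *S100b* likewise had 2.47 and 1.70 counts of the first per count of the second (0.689-fold, 0.414 to 1.16), and *Ngfr* and *Tfap2a* 0.200 and 0.212 (1.06-fold, 0.672 to 1.64). Set against *Erbb3*, the count of *Egr2* was 30.9-fold higher in the extracranial library (22.7 to 42.8), and set against *Sox10* it was at least 42.2-fold higher by the interval bound. *Mag* counts per *Prx* count went from 0.408 to 2.71, a change of 6.63-fold (4.69 to 9.45).

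Ordered by level per kilobase of exon, *Pmp22* was first in both libraries, at 75.4 and 57.5 CPM per kilobase, which is percentile 96.7 and 95.7 of expressed protein-coding genes. *Egr2* was second in both, at 5.34 CPM per kilobase (percentile 61.6) and 26.4 (percentile 90.4). In the intracranial library *S100b* (3.26) and *Tfap2a* (2.7) followed, with overlapping intervals, then *Erbb3* (1.99). *Ngfr* (0.768), *Mag* (0.608) and *Sox10* (0.406) closed the order, and the intervals of neighbors overlapped there. In the extracranial library *Mag* (2.59 CPM per kilobase) stood at rank 3 instead of 7, ahead of *Tfap2a* (1.30), *S100b* (0.755), *Ngfr* (0.390) and *Erbb3* (0.317), and *Sox10* was last at 0. The intervals of *S100b*, *Ngfr* and *Erbb3* overlapped with those of their neighbors. *Erbb3* was at rank 7 there and at rank 5 in the intracranial library.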

How the data were processed

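RNA of 2 frozen tumors, 1 intracranial and 1 extracranial by their localization labels, was sequenced in bulk. Values in the deposited matrix were raw counts of reads for each Ensembl gene ID. The authors made poly(A) libraries with a directional kit, mapped single reads to GRCm39 (Ensembl 104) with STAR 2.7.9a and counted genes with featureCounts. How strand and multiply mapped reads were handled is not given in the sources used here.

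GENCODE mouse release 21 (GRCm38) gave symbols for 94.1% of IDs, exon lengths and overlaps. TMM factors from edgeR 4.0.16 (1.006 and 0.994) scaled the libraries of 34545846 and 26915696 counts. CPM had Clopper-Pearson 95% intervals and ratios conditional exact binomial ones, and both, like the floor of 3 counts, cover counting error only, as reads are not distinct molecules. A ratio needed 10 counts in total, and in list medians counts below 3 were raised to 3. With 1 library per location no quasi-likelihood test could be fitted. In simulated counts for this comparison (22018 and 21987 genes), 193 of 200 genes changed 8-fold and 199 of 200 changed 16-fold passed the 4-fold rule, with 0 of 21818 and 0 of 21787 unchanged genes. The simulated counts held counting error alone, as the intervals assume, so they say nothing about variation between tumors. The changed genes were drawn from those with 100 or more counts, which leaves out *Sox10* with 43.

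The 8 genes and 20 lists were chosen with earlier results of these data known. Genes were named if they were among the 8, first in a list, past the 4-fold rule or highest in a family; all others were named after their values were seen. Some genes are not reported here, and were taken off the lists after their values had been seen. Alternatives covered scaling (DESeq2 1.42.0, total, upper quartile), count minimum (none or 100), threshold (interval beyond 2-fold, or ratio without interval), protein-coding genes and ordering without length.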

Additional observations from a re-analysis of the deposited data

How the results depend on the processing

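No paired analysis was possible because there was 1 library at each location, and for the same reason no library could be left out. Scaling by DESeq2, by total counts or by the upper quartile moved the median gene by -0.02 to 0.04 on the log2 scale and left the calls of the 8 genes as they were. An interval beyond 2-fold gave 1287 genes higher and 2147 lower in the extracranial library over all genes, 25 higher and 51 lower among list genes (9 and 34 beyond 4-fold), and 2 higher among the 8 genes, where *Mag* joined *Egr2*. The ratio without its interval gave 815 higher and 2052 lower over all genes and also 2 higher among the 8. Under both of these looser rules *S100b* joined *Sox10* and *Erbb3* as lower. With 100 or more counts required, 1 of the 8 genes was lower, since *Sox10* has 43. Ordered by CPM without length, 5 of the 8 genes kept their rank in the intracranial and 6 in the extracranial library. Low counts limit *Sox10*, *Ngfr* and *S100b* the most.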
